A study of Mus musculus with 31 samples.

Results

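The comparison set the left masseter, a chewing muscle, of mice 5 days after an injection of complete Freund's adjuvant (5d post-CFA) against the same muscle of vehicle mice. Its members are the libraries whose titles place them in these groups, 3 and 3, which is 6 of the 31 libraries of the series. Genes entered the tests when at least 10 counts were found in at least 3 of the 6 libraries, which 14026 of 22609 gene symbols met. All mice were adult wild-type male C57BL/6J mice bought from a supplier. The 5d mice had received CFA, mineral oil with killed mycobacteria, mixed 1:1 with PBS, by injection into the muscle, and the vehicle mice PBS. The collection day of the vehicle mice is not given in the sources used here. The other libraries cover 1d post-CFA, which shares these vehicle mice, and a collagenase experiment with vehicle mice of its own. Each library is called a mouse below because the labels number it as a replicate and mention no pooling, so the p-values measure only the spread between these libraries. The study describes hypersensitivity that came early and had resolved by the later time point. The comparison therefore asks what the muscle expressed once pain behaviour was back at baseline.

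CFA is taken up by resident and recruited phagocytes, whose Toll-like receptors sense the mycobacterial lipoproteins and start chemokine, complement and acute-phase transcription. Type I interferons act on neighbouring cells through Janus kinases and a complex that holds STAT2 and IRF9, which binds a short element near the start of interferon-stimulated genes. The masseter also lies directly beneath the parotid gland, and the other salivary glands are close by, so salivary tissue can be dissected with the muscle. Salivary acini secrete Smr3a, Pip and demilune proteins such as Dcpp1, and salivary ducts carry keratins, claudins and sodium channels.

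The promoters of interferon-stimulated genes are shown first because these genes made up the list with the largest positive median difference apart from the salivary lists and the genes the study itself named. The element searched was GAAANNGAAA on either strand, the core of the interferon-stimulated response element. RefSeq windows of 300 bases, from 250 before to 50 after each start (mouse build GRCm38.p6), were at hand for 18 of the 25 genes on the list. The motif was present in 12 of the 20 windows of these genes, against 3.44% of all 32851 windows. A match is a stretch of letters and not a measured binding site. In the stretches below, read along the strand of the gene, capitals mark every match on either strand, overlapping matches joined.
Isg15, chr4:156200845-156200926, minus strand: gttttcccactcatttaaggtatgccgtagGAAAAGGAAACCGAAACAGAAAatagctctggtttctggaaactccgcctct
Ifit1, chr19:34640755-34640843, plus strand: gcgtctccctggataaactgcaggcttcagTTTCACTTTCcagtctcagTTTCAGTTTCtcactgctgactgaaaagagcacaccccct
Ifit3, chr19:34583343-34583446, plus strand: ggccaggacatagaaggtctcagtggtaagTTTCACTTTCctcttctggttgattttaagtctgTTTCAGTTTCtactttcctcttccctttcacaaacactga
Oas1a, chr5:120907526-120907575, minus strand: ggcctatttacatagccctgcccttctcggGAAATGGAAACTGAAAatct
Stat2, chr10:128270248-128270315, plus strand: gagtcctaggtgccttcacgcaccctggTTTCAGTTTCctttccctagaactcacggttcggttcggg
Bst2, chr8:71537557-71537632, minus strand: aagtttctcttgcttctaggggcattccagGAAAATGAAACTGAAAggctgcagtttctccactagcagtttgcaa
The Isg15 stretch held 3 overlapping matches beginning 78 bases before the start, those of Oas1a and Bst2 held 2 overlapping ones each, and those of Ifit1 and Ifit3 held 2 separate ones each. Irf7, Ifit2, Oasl1, Oasl2, Ifi44 and Cxcl9 had no match in their windows.

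Reads assigned to genes numbered 24035014 to 29076671 per library. Salivary genes were the most abundant transcripts at 5d. The salivary score, the mean log2 CPM (counts scaled to library size, here by TMM over all 31 libraries) of Smr3a, Pip and Dcpp1, was 14.2, 13.5 and 13 at 5d and 1.79, 2.54 and 10.5 in vehicle. In each of the 5d mice the most abundant gene was Bpifa2e, the parotid secretory protein, followed by Smr3a and Amy1, salivary amylase. The salivary genes on the lists and Bpifa2e, 24 genes in all, summed to 303976, 227426 and 254064 CPM of the reads on genes at 5d, without TMM scaling. They summed to 218, 246 and 36714 CPM in vehicle. Vehicle mouse 3 stood between its group and the 5d mice on this measure. It also stood apart in myeloid genes: S100a9, a neutrophil calcium-binding protein, was at 1.06, 1.26 and 233 CPM in the vehicle mice and at 0.807, 0.44 and 0.554 CPM at 5d. The vehicle group of the collagenase experiment had scores of 1.94, 14.1 and 11.9, so its mouse 2 carried as much salivary RNA as the 5d mice and its mouse 1 as little as vehicle mouse 1. Values of these mice are given beside the results for that reason. Their libraries had 7.04 to 11.8% of reads on no feature, against 3.94 to 6.73% in the 6 libraries compared. Differences from these mice therefore also hold any difference between the experiments.

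**Figure D1:**
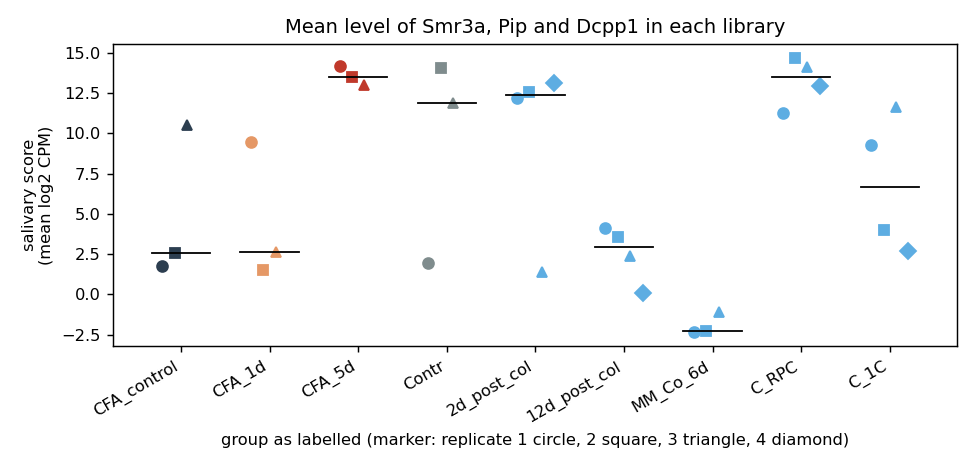
Each point is 1 library, placed by its labelled group (horizontal axis) and its salivary score in mean log2 CPM (vertical axis), with the bar at the group median and the marker shape giving the replicate number. The 3 libraries at 5d post-CFA sit between 13 and 14.2, while vehicle mice 1 and 2 of the CFA experiment sit at 1.79 and 2.54 and vehicle mouse 3 at 10.5.

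In edgeR's quasi-likelihood test with Benjamini-Hochberg adjustment over all genes tested, 149 genes were higher and 6 were lower at 5d (adjusted p under 0.05), which is 1.06% and 0.0428% of the 14026. Differentially expressed genes, which in addition had to differ by more than 2-fold and to exceed 1 RPKM on average in at least 1 of the groups, were fewer: 123 (0.877%) were up-regulated and 6 (0.0428%) down-regulated. At an unadjusted p under 0.05, 10.3% of all genes were higher and 3.71% lower, and the groups lay apart with 5d above in 14% and with 5d below in 5.58%. The smallest adjusted p was 0.0108. All 149 genes kept their direction in each of the 6 fits that left out 1 mouse. This was close to fixed in advance, because none of the 149 had overlapping groups. How many genes passed did depend on single mice. The count of higher genes was 22, 1 and 0 without 5d mouse 1, 2 or 3, and 6, 0 and 1661 without vehicle mouse 1, 2 or 3. That of lower genes was 0 without any 1 mouse other than vehicle mouse 3, and 540 without vehicle mouse 3. Without vehicle mouse 3 the calls were 11.8% and 3.85% of all genes. With the salivary score as a covariate over 31 libraries, with the vehicle mice of both experiments pooled, or with scaling to sarcomere genes, 0 genes passed in either direction (817, 1451 and 1070 genes at an unadjusted p under 0.05). Rose and fell below refer to edgeR on the 6 libraries without these changes. DESeq2 called 716 genes higher (5.1%) and 183 lower (1.3%). All of these shares are the background for the counts within gene lists below. The lower genes were 3.87% of the calls in the main test, 20.36% with DESeq2 and 24.53% without vehicle mouse 3.

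Genes were sorted by whether they moved with the salivary score elsewhere in the series. A gene was said to follow the score when its log2 CPM correlated with it at Pearson r of 0.6 or more across the other 25 libraries, after both were centred within their 7 groups. This is a class and not a test, and the points share libraries and dissections. Of all genes tested, 447 (3.19%) followed the score, and of the 149 higher genes 84 did and 65 did not. With the linear scale checked as well, 25 of the 149 stayed under the limit on both scales. Among the 123 up-regulated genes 72 followed. None of the 6 lower genes did, but the class holds positive correlations only. A gene that falls as the score rises cannot enter it. A direct look came from the collagenase vehicle mice: 82 of the 84 following genes were over 2-fold higher in mouse 2 than in mouse 1, and so were 42 of the 65 that did not follow and 15 of the 25, against 6.04% of all genes tested. So many genes outside the class also differed between a salivary-rich and a salivary-poor vehicle mouse. The 6 lower genes had a median log2 ratio of mouse 2 to mouse 1 of -0.95, against -0.05 for all genes tested. The part of salivary tissue in the individual differences was not tested.

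**Figure D2:**
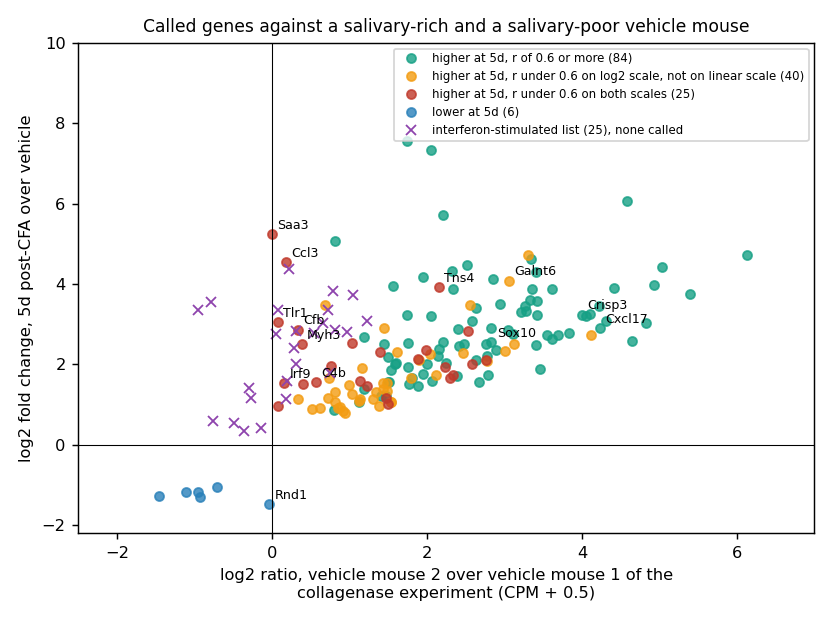
Each point is a gene, with the log2 ratio of collagenase vehicle mouse 2 (score 14.1) to mouse 1 (score 1.94) on the horizontal axis (CPM + 0.5) and the log2 fold change of 5d post-CFA over vehicle on the vertical axis; colours give the call and the salivary class, crosses the interferon-stimulated list. Most following genes lie to the right, with a median ratio of 2.63, while Saa3, Ccl3, Tlr1, Cfb, Irf9 and the interferon-stimulated list (median 0.22) lie near a ratio of 0.

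The salivary markers themselves did not pass edgeR with all 6 mice, and DESeq2 called 1 of the 3. Smr3a, a secreted prohormone-like protein, was at 92316, 67404 and 68326 CPM at 5d and 17, 32.6 and 6082 CPM in vehicle (log2 fold change 5.22 ± 2.10, edgeR adjusted p = 0.326, and a log2 fold change of 11.58 without vehicle mouse 3). Pip, the prolactin-induced salivary protein, was at 5546, 3114 and 4611 against 1.1, 2.52 and 1299 CPM, and Dcpp1 at 8908, 4842 and 1246 against 1.03, 1.07 and 259.9 CPM. The 5d values exceeded all vehicle values for each of the 3 genes, and 2 had an unadjusted p under 0.05, and without vehicle mouse 3 all 3 passed. Of 13 other secretory genes tested, 0 passed edgeR, 8 had an unadjusted p under 0.05 and a higher level at 5d, DESeq2 called 3, and 11 passed without vehicle mouse 3, their median log2 fold change going from 4.38 to 10.83. Kallikreins were among them: Klk1, tissue kallikrein, was at 1508, 929 and 509 CPM at 5d against 24.4, 5.66 and 67 CPM. Dcpp1 shares 47.0% of its 50-base windows with other genes and Klk1 31.1%, so reads can be split within these families.

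Genes of ducts and other glandular epithelium did pass. Of 27 tested genes of the glandular and simple epithelium list, 8 rose (against 1.06% of all genes), 27 had groups that did not overlap (against 14%), and 23 followed the score. Their median log2 fold change was 2.73 (3.91 without vehicle mouse 3), against -0.02 for all genes. Krt7, a duct keratin, was at 49.1, 35.3 and 27.1 CPM at 5d and 7.65, 4.92 and 6.13 CPM in vehicle and rose (log2 fold change 2.57 ± 0.27, edgeR adjusted p = 0.0223). Elf3, an epithelial transcription factor, rose from 3.56, 1.96 and 2.61 to 17.5, 16.1 and 16.7 CPM (log2 fold change 2.63 ± 0.25, edgeR adjusted p = 0.0186). In the collagenase vehicle mice Krt7 stood at 2.19, 66.5 and 3.12 CPM on the 31-library scale, against 56.6, 41.7 and 31 CPM at 5d, so the salivary-rich mouse 2 was the highest of all. Elf3 stood at 1, 17.9 and 3.89 CPM there against 20.2, 19 and 19.2 CPM, with mouse 2 just under the 5d mice. The chemokine Cxcl17, made by mucosal epithelium, rose and was at 18.7, 12.3 and 12.4 CPM at 5d against 2, 1.15 and 2.64 CPM (edgeR adjusted p = 0.0317), and at 0.501, 18.3 and 2.54 CPM in the collagenase vehicle mice.

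Other genes were picked after their values were seen. The 3 subunits of the epithelial sodium channel rose: Scnn1a from 4.26, 1.67 and 2.96 to 22.7, 21.7 and 14.5 CPM, Scnn1b from 0.699, 0.259 and 0.318 to 7.06, 6.2 and 2.54 CPM, and Scnn1g from 0, 0.074 and 0.0318 to 3.07, 1.49 and 1.57 CPM (edgeR adjusted p = 0.036, 0.0409 and 0.0352). Each followed the score, and Scnn1g reached 10 counts at 5d alone, so it could be tested only by being higher there. The chloride channel Ano1, used by acinar cells, rose from 12.3, 14.4 and 25.1 to 82.7, 69.7 and 81.6 CPM, and Ascl3, a factor of duct cells, from 0.299, 0.444 and 0.191 to 4.4, 3.43 and 2.12 CPM (edgeR adjusted p = 0.0352 and 0.0376). Crisp3, a secreted salivary protein, rose with the smallest p of all genes (edgeR adjusted p = 0.0108), with 63.3, 37.8 and 48 CPM at 5d against 5.32, 5.26 and 5.24 CPM, and 1.73, 35 and 9.96 CPM in the collagenase vehicle mice. All of these genes were highest of the collagenase vehicle mice in mouse 2. Among the following genes taken by size, Csn3, kappa-casein, was at 10.8, 9.54 and 7.07 CPM against 0, 0 and 0.381 CPM (log2 fold change 6.06 ± 1.01), Cldn22 at 72.5, 41.5 and 47.2 against 0.466, 1.22 and 4.42 CPM (log2 fold change 4.71 ± 0.74) and Rasal1, a Ras GTPase activator, at 24.1, 14 and 15.1 against 0.333, 0.222 and 1.88 CPM (log2 fold change 4.43 ± 0.75). Klk1b5, a kallikrein, rose with 113 counts at 5d against 6 in vehicle, summed over mice, a ratio of 24.1 (exact 95% interval 10.7 to 67.1), and it too reached 10 counts at 5d alone. Cldn22 shares 44.8% of its 50-base windows with other genes, most of them with Cldn24.

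Stratified epithelium gave 5 risen genes of 15 tested, with a median log2 fold change of 2.16, and 4 of the 15 followed the score. Krt5, the basal keratin that pairs with Krt14, rose from 2.46, 1.7 and 3.88 to 13.5, 14.2 and 13.8 CPM (log2 fold change 2.36 ± 0.31, edgeR adjusted p = 0.0352). Its collagenase vehicle values were 6.6, 27.5 and 3.99 CPM, and it stayed under the class limit on both scales. Pkp1, a desmosomal plaque protein, was at 14.2, 10.9 and 8.18 against 1.9, 0.74 and 2.03 CPM, Krt17 at 1.61, 2.46 and 2.45 against 0.466, 0.481 and 0.54 CPM, and Col17a1, the hemidesmosomal collagen, at 4.19, 6.02 and 4.34 against 1.2, 0.925 and 1.65 CPM (edgeR adjusted p = 0.0397, 0.0447 and 0.0486). For each of these 4 genes collagenase vehicle mouse 2 was above the highest 5d value on the 31-library scale. Calml3, an epithelial calmodulin, followed the score and rose from 0.399, 0.407 and 1.56 to 22.4, 16.6 and 20.1 CPM (edgeR adjusted p = 0.0281). The markers of a cornified layer, Krt1, Lor and Ivl, had at most 2 counts in any of the 6 libraries. In the collagenase vehicle mice Krt1 was at 12.4, 26.5 and 18.2 CPM, and the part of keratinised tissue in their Krt5 values was not tested.

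Interferon-stimulated genes differed in 1 direction. All 25 genes of the list were tested, all 25 had a positive log2 fold change, and the median was 2.78 against -0.02 for all genes. In 20 of the 25 the groups did not overlap (14% of all genes lay above in this way), and in 17 the 5d mice were above all 6 vehicle mice of both experiments (3.95% of all genes). None of the 25 followed the score. None passed edgeR after adjustment. An unadjusted p under 0.05 was found for 21 (10.3% of all genes were higher at that limit), and DESeq2 called 19 (against 5.1%). Irf7, the factor that amplifies type I interferon production, was at 26.5, 142 and 227 CPM at 5d and 7.42, 13.5 and 6.74 CPM in vehicle (log2 fold change 3.83 ± 0.75, edgeR adjusted p = 0.0697). Isg15, a ubiquitin-like protein, was at 8.03, 25.1 and 37.2 against 3.16, 3.74 and 3.11 CPM, and Oasl2, of the oligoadenylate synthetase family, at 18.1, 61.9 and 85.2 against 5.09, 7.99 and 6.39 CPM (edgeR adjusted p = 0.0591 and 0.0527). These genes share the spread of the 5d mice: mouse 3 had the highest 5d value in 25 of 25 genes and mouse 1 the lowest in 22. Mouse 1 also had the highest salivary score of the 3. Irf7 was picked from the list after its values were seen, as were Stat2, Gbp2, Igtp, Iigp1, Rsad2 and Cxcl9 below.

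The same order held for the antiviral effectors. Ifit1, which binds viral RNA, was at 9.24, 22.9 and 33.4 against 3.33, 4.4 and 4.64 CPM (log2 fold change 2.40 ± 0.45), and Mx2, a dynamin-like GTPase, at 1.65, 3.17 and 7.07 against 0.499, 0.333 and 0.318 CPM (log2 fold change 3.35 ± 0.60, edgeR adjusted p = 0.0623 and 0.0562). Stat2, which carries the motif shown above, was at 28.7, 53.3 and 88.1 against 12.5, 14 and 15.4 CPM with no overlap. Irf9, the DNA-binding partner of STAT2, is not on the list and was picked after its values were seen. It rose from 13.8, 16.7 and 15.1 to 30.6, 44.9 and 55.8 CPM (log2 fold change 1.53 ± 0.23, edgeR adjusted p = 0.0397) (2.39% of its 50-base windows are shared with the overlapping Rnf31) and stood at 20.6, 23 and 18.6 CPM in the collagenase vehicle mice against 35.3, 53.2 and 64 CPM at 5d on the 31-library scale. Pml and Sp100, components of nuclear bodies that interferon induces, were picked in the same way. Pml rose from 10.9, 13.9 and 15.9 to 33.6, 41.8 and 53 CPM and Sp100 from 13.2, 18.2 and 19.4 to 37.3, 44.9 and 60.8 CPM (edgeR adjusted p = 0.036 and 0.0423), and both reached the class limit on the linear scale alone. The 4 genes of the list with an unadjusted p of 0.05 or more were Gbp2, Igtp, Iigp1 and Rsad2. Gbp2 was at 21.9, 28.1 and 41.3 against 16.3, 28.6 and 26.9 CPM, Igtp at 24.9, 43.3 and 67.5 against 22.7, 45.9 and 24.3 CPM, Iigp1 at 19.9, 14.7 and 35.7 against 11.3, 13.5 and 27.4 CPM, and Rsad2, viperin, at 14.8, 18.4 and 52.9 against 18.8, 16.7 and 21.7 CPM, with overlapping groups and log2 fold changes of 0.35 ± 0.30, 0.55 ± 0.41, 0.42 ± 0.43 and 0.59 ± 0.46. Cxcl9 also overlapped (log2 fold change 1.41 ± 0.54). The difference between these and the other genes of the list was not tested. Ifi27l2a, an interferon-induced gene outside the list picked after its values were seen, rose from 23.1, 41.8 and 30.9 to 241, 644 and 789.9 CPM (edgeR adjusted p = 0.0308), but it followed the score and stood at 25.6, 189 and 52.8 CPM in the collagenase vehicle mice, and 40.8% of its 50-base windows are shared, most with Ifi27l2b. At 1d, on the 31-library scale, Irf7 was at 18, 12.7 and 53.3 CPM and Isg15 at 9.52, 5.89 and 38.4 CPM, beside 30.5, 168 and 260.2 and 9.26, 29.7 and 42.7 CPM at 5d, with the vehicle mice shared by both comparisons. The list's median was 2.76 without vehicle mouse 3 and 2.68 in a fit over all 31 libraries with the salivary score as a covariate.

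**Figure D3:**
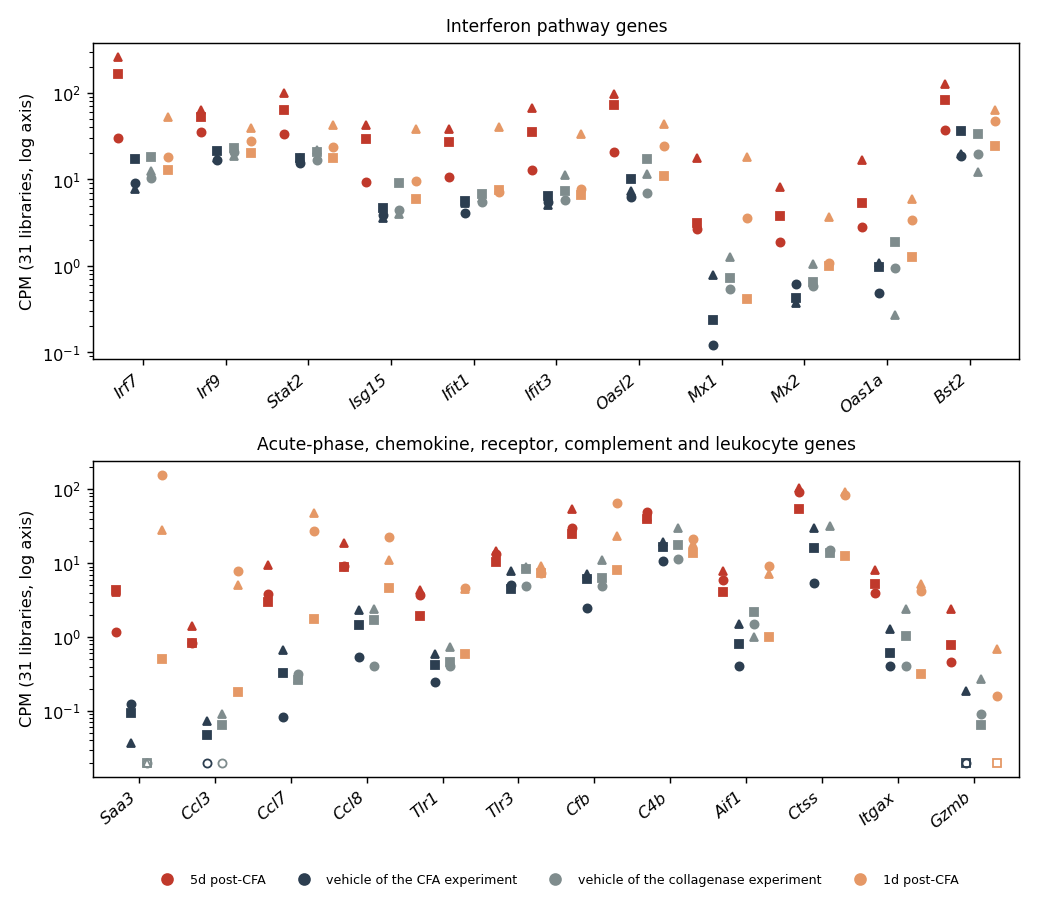
Each point is 1 mouse, with CPM scaled over 31 libraries on a log axis, genes along the horizontal axis, colours for the 4 groups and marker shapes for replicates 1 (circle), 2 (square) and 3 (triangle); open markers on the lower edge stand for 0. In the upper panel mouse 3 at 5d is highest and mouse 1 nearest to the vehicle mice, and in the lower panel the 5d values of Saa3, Ccl3, Ccl7, Ccl8 and Tlr1 lie above both vehicle groups.

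Among the immune genes that passed the test and stayed under the class limit on both scales were an acute-phase gene, a chemokine, a Toll-like receptor and complement genes. Saa3, the local serum amyloid A (chr7:53967368-53971046, minus strand, mm9), had 25, 83 and 78 counts at 5d and 3, 2 and 1 counts in vehicle, which is 1.01, 3.65 and 3.6 against 0.0998, 0.074 and 0.0318 CPM. It rose (edgeR adjusted p = 0.0368), the ratio of the summed counts being 39.7 (exact 95% interval 17.9 to 109, counting error only). Saa3 reached the minimum of 10 counts at 5d alone, so it could enter the test only by being higher there. All 3 collagenase vehicle mice were at 0. At 1d the values were 157, 0.502 and 28.2 CPM beside 1.16, 4.32 and 4.13 CPM at 5d, all on the 31-library scale, so mouse 2 at 1d was below every 5d mouse and the other two were above. Of the 11 tested genes of the acute-phase and cytokine list Saa3 was the 1 that rose, with 0 lower and a median log2 fold change of 0.52. Il1rn, the interleukin-1 receptor antagonist, was at 0.847, 2.95 and 11.6 against 0.0998, 0.111 and 1.53 CPM, Tnf at 0.524, 0.528 and 2.36 against 0.133, 0.111 and 0.318 CPM and Socs3, a feedback inhibitor of cytokine signalling, at 6.98, 14.8 and 14.5 against 6.99, 4.89 and 5.88 CPM (edgeR adjusted p = 0.326, 0.19 and 0.196). Ptx3, a long pentraxin picked after its values were seen, rose from 3.69, 4.37 and 4.64 to 10.7, 12.8 and 12.4 CPM (edgeR adjusted p = 0.0352), with 9.61, 12.9 and 8.38 CPM in the collagenase vehicle mice and 12.4, 15.2 and 14.2 CPM at 5d on the 31-library scale, which overlap.

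Chemokine ligands were mostly higher at low levels. Of 23 tested ligands 2 rose (against 1.06% of all genes), Cxcl17 and Ccl3, and none fell. At an unadjusted p under 0.05, 13 were higher (against 10.3%), and DESeq2 called 10 higher (against 5.1%). Their median log2 fold change was 1.37. Ccl3, a monocyte and lymphocyte attractant (chr11:83461346-83462857, minus strand, mm9), had 18, 16 and 27 counts at 5d and 0, 1 and 2 in vehicle, a ratio of 26.0 of the summed counts (exact 95% interval 8.49 to 130, edgeR adjusted p = 0.0447). Ccl3, Ccl4 and Ccl12 reached the minimum of 10 counts at 5d alone, so they could enter the test only by being higher there. The median of the ligands includes these genes. Ccl8, a ligand of monocyte receptors, was at 7.86, 7.43 and 16.6 against 0.432, 1.15 and 1.97 CPM (log2 fold change 3.16 ± 0.59), Ccl12 at 0.766, 1.06 and 2.63 against 0.0665, 0.074 and 0.191 CPM, and Ccl7 at 3.35, 2.55 and 8.36 against 0.0665, 0.259 and 0.572 CPM (edgeR adjusted p = 0.0605, 0.0647 and 0.0697). The groups did not overlap in any of these, and all lay above the 6 vehicle mice. Over the whole list, 15 of 23 lay above without overlap and 1 below, against 14% and 5.58% of all genes. Above the 6 vehicle mice lay 10 of the 23, against 3.95% of all genes. Ccl7 and the next gene were picked from the list after their values were seen. The neutrophil attractant Cxcl1 was at 0.524, 0.572 and 0.739 against 0.499, 0.296 and 0.35 CPM, and Cxcl2, Cxcl3 and Cxcl5 had too few counts to be tested. At 1d Ccl7 stood at 27.5, 1.78 and 48.3 CPM beside 3.86, 3.02 and 9.59 CPM at 5d on the 31-library scale. Mouse 2 at 1d was again low.

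Toll-like receptors and complement gave 3 risen genes. Tlr1, which pairs with Tlr2 to sense triacylated bacterial lipopeptides (chr5:65316050-65324000, minus strand, mm9), rose from 0.2, 0.333 and 0.509 to 3.27, 1.63 and 3.83 CPM (log2 fold change 3.05 ± 0.51, edgeR adjusted p = 0.0482), and 17.4% of its 50-base windows are shared, most with Tlr6. It was the 1 of 14 tested receptors that rose, against 1.06% of all genes. Tlr3, the endosomal sensor of double-stranded RNA, was at 11.7, 8.7 and 12.7 against 4.16, 3.52 and 6.74 CPM without overlap (log2 fold change 1.20 ± 0.30, edgeR adjusted p = 0.117). Tlr12 was at 0.645, 0.923 and 0.739 against 0, 0.037 and 0.254 CPM and Tlr4, the lipopolysaccharide receptor, at 7.34, 6.37 and 10.4 against 22.2, 9.4 and 15.3 CPM (edgeR adjusted p = 0.193 and 0.259). Tlr12 reached 10 counts at 5d alone, so it could enter the test only by being higher there. Of 17 tested complement genes 2 rose (against 1.06% of all genes) and none fell. Cfb, factor B of the alternative pathway (chr17:34993319-34999463, minus strand, mm9), rose from 2.03, 4.89 and 6.1 to 25.6, 21.3 and 47.8 CPM (log2 fold change 2.86 ± 0.47, edgeR adjusted p = 0.0461), although 74.2% of its windows are shared with an overlapping gene model on the same strand. C4b, of the classical pathway, rose from 8.78, 12.9 and 16.7 to 43, 33.2 and 36.9 CPM (log2 fold change 1.56 ± 0.25, edgeR adjusted p = 0.044). C3ar1, the receptor of the C3a fragment, was at 12.9, 7.39 and 17.1 against 1.06, 3.18 and 4.48 CPM, and C1qa at 47, 38.4 and 78 against 12.5, 30.4 and 29.7 CPM (edgeR adjusted p = 0.126 and 0.234). In the collagenase vehicle mice Tlr1 was at 0.41, 0.457 and 0.725, Cfb at 4.96, 6.39 and 11.1 and C4b at 11.6, 17.4 and 29.9 CPM, below every 5d value on that scale (3.77, 1.93 and 4.4, 29.5, 25.2 and 54.8 and 49.5, 39.3 and 42.3 CPM).

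Markers of macrophages and monocytes were mostly higher without passing. Of 30 tested genes 0 passed edgeR, and 14 were higher at an unadjusted p under 0.05 (against 10.3% of all genes). DESeq2 called 8 higher (against 5.1%), and the median log2 fold change was 1.08. Without vehicle mouse 3, 18 passed (against 11.8%) and the median was 1.99. In 10 of the 30 the 5d mice lay above all 6 vehicle mice (3.95% of all genes). Aif1, a cytoskeletal protein of macrophages, was at 5.16, 3.43 and 6.84 against 0.333, 0.629 and 1.27 CPM (log2 fold change 2.78 ± 0.53, edgeR adjusted p = 0.0664). Ctss, cathepsin S, was at 80, 45.5 and 91.5 against 4.46, 12.8 and 25.9 CPM and Fcgr1, the high-affinity IgG receptor, at 5.28, 4.57 and 13 against 0.399, 1.07 and 1.78 CPM (edgeR adjusted p = 0.124 and 0.091). Cx3cr1, the fractalkine receptor, was at 10.3, 5.28 and 8.96 against 0.133, 0.555 and 3.78 CPM. Broad markers, picked after their values were seen, overlapped: Csf1r was at 41.6, 28.6 and 48.5 against 12.4, 31.1 and 39 CPM, Lyz2 at 220.1, 79.1 and 138 against 35.9, 101 and 175 CPM and Cd163, of resident macrophages, at 4.15, 4.09 and 9.47 against 4.06, 7.66 and 13 CPM. Mouse 2 had the lowest 5d value in 29 of the 30 genes, which is not the order seen for the interferon-stimulated genes. In such bulk tissue, more cells of a type and more RNA per cell cannot be told apart.

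Antigen presentation and lymphocyte genes gave a like picture. Of 16 tested genes for dendritic cells and MHC class II 0 passed edgeR, and the median log2 fold change was 1.35. An unadjusted p under 0.05 with a higher level was found for 9 (against 10.3% of all genes), and DESeq2 called 3 (against 5.1%). Itgax, the CD11c integrin, was at 3.47, 4.44 and 7.16 against 0.333, 0.481 and 1.11 CPM (log2 fold change 2.95 ± 0.53, edgeR adjusted p = 0.0565). The class II chains H2-Aa and H2-Eb1 were at 107, 94.8 and 145 against 14.7, 48.1 and 66.6 CPM and at 81.6, 75 and 109 against 13.4, 36.9 and 50 CPM, each lowest in vehicle mouse 1. H2-Ab1 was at 81.4, 71.1 and 104 against 12.9, 39.5 and 51.6 CPM, and it overlaps H2-Aa on the opposite strand. Among T and NK cell genes 11 of 20 were tested and 0 passed edgeR. Higher at an unadjusted p under 0.05 were 7 (against 10.3% of all genes), and DESeq2 called 3 (against 5.1%). Their median log2 fold change was 2.60, or 4.74 without vehicle mouse 3, when 10 passed (against 11.8%). Gzma, Gzmb and Ncr1 reached 10 counts at 5d alone, so they could enter the test only by being higher there. Both medians include them. Gzmb, granzyme B, had 10, 15 and 46 counts at 5d and 0, 0 and 5 in vehicle, and Gzma 17, 20 and 33 against 0, 1 and 7 (edgeR adjusted p = 0.153 and 0.131). Ncr1, the NK cell receptor NKp46, had 12, 14 and 15 against 0, 1 and 5 counts and Klrk1, the NKG2D receptor, was at 1.65, 1.01 and 2.91 against 0.133, 0.074 and 0.572 CPM. The T cell receptor complex was near 0 throughout: Cd3e had 4, 1 and 2 counts at 5d and 1, 0 and 4 in vehicle, and Cd3d and Cd3g at most 8 in any library.

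Neutrophil and B cell genes followed vehicle mouse 3. All 8 tested neutrophil genes were highest of the 6 in that mouse, and the median log2 fold change was -4.44 with it and -0.04 without it. With all mice 0 passed edgeR or DESeq2, and 4 were lower at an unadjusted p under 0.05 (against 3.71% of all genes). Without vehicle mouse 3, 3 of the 8 passed edgeR as higher at 5d (against 11.8%). The 8 genes and the untested members of the list summed to 6.13, 18.1 and 1188 CPM in vehicle and 25.4, 13.8 and 19.7 CPM at 5d on the 31-library scale. Ngp and Camp, granule proteins of neutrophil precursors, were at 0.299, 0.518 and 144 and 0.898, 2.48 and 54.2 CPM in vehicle and at 0.645, 0.176 and 0.0462 and 0.726, 1.71 and 1.62 CPM at 5d. Mpo, made in marrow precursors, had 2, 1 and 1454 counts in vehicle and 3, 1 and 2 at 5d. Collagenase vehicle mice 1 and 3 were high as well, with S100a8 at 78.1, 1.76 and 243 CPM. None of 4 tested B cell genes passed edgeR or DESeq2 with all mice, and 0 had an unadjusted p under 0.05. The median log2 fold change was -0.40 with vehicle mouse 3 and 2.26 without it, where 2 of the 4 passed edgeR as higher. Igj, the joining chain of plasma cells, was at 2.06, 6.02 and 2.73 against 0.233, 0.333 and 10.6 CPM, Cd79b at 0.766, 0.22 and 0.554 against 0.166, 0.407 and 7.53 CPM and Cd22 at 0.968, 0.352 and 1.71 against 0.0333, 0.074 and 2.35 CPM. Alas2, of the erythroid line and the 1 erythrocyte gene tested, passed neither tool (log2 fold change -2.86 ± 1.46) and was at 2.02, 2.95 and 0.508 against 0.798, 1.18 and 37.9 CPM. The part of these cells in other differences that rest on vehicle mouse 3 was not tested.

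The 6 genes that fell were Rnd1, Fhl2, Lmod2, Ebf1, Alpl and Cyr61. Rnd1, a small GTPase (chr15:98493852-98507892, minus strand, mm9), fell from 19.5, 15.5 and 13 to 5.36, 6.46 and 5.4 CPM (log2 fold change -1.47 ± 0.21, edgeR adjusted p = 0.0397). Fhl2, a LIM protein of the sarcomere (chr1:43179919-43220806, minus strand), fell from 52.2, 33.5 and 38.9 to 13.4, 19.1 and 17.8 CPM, and Lmod2, leiomodin 2, which nucleates thin-filament actin (chr6:24547771-24555414, plus strand), from 287, 327 and 343 to 163, 143 and 119.9 CPM (edgeR adjusted p = 0.0484 and 0.0447). The collagenase vehicle mice limit what this shows for those 2: Fhl2 stood at 47.1, 24.5 and 20.1 CPM and Lmod2 at 492, 228 and 162 CPM there, on the 31-library scale, against 15.4, 22.6 and 20.4 and 188, 169.7 and 137 CPM at 5d, so both overlapped. Rnd1 at 17.1, 16.6 and 8.65 CPM lay above all 5d mice (6.19, 7.65 and 6.2 CPM). Ebf1, a factor of fibro-adipogenic progenitors and of B cells, fell from 31.2, 32.4 and 27.1 to 15.1, 12.4 and 13 CPM, and its lowest collagenase vehicle value, 14.7 CPM in mouse 2, overlapped. Alpl, tissue-nonspecific alkaline phosphatase, fell from 42.4, 54.3 and 52 to 15.5, 23.5 and 23 CPM and Cyr61, a matricellular early-response gene, from 20.7, 19.5 and 17 to 9.68, 8.66 and 9.24 CPM (edgeR adjusted p = 0.0352, 0.0447 and 0.0397). Both lay below all 6 vehicle mice. The log2 fold changes of these 5 genes were -1.31 ± 0.22, -1.17 ± 0.19, -1.16 ± 0.15, -1.26 ± 0.20 and -1.05 ± 0.15 in the order named. No gene was lower by the test after libraries were scaled to the 62 sarcomere genes (1070 genes at an unadjusted p under 0.05 in either direction), although all 6 kept their sign. Fhl2 and Lmod2 are themselves among those 62 genes.

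Fibre gene lists had small median differences. Of 62 tested sarcomere genes 2 fell (against 0.0428% of all genes) and 0 rose. At an unadjusted p under 0.05, 9 were lower (against 3.71%), and DESeq2 called 5 lower (against 1.3%). A negative log2 fold change was found for 55, and the median was -0.31, against -0.02 for all genes. Scaled to the sarcomere genes themselves that median was -0.04, and the median of all genes 0.20. This scaling pulls the sarcomere median toward 0 by construction, so it cannot show whether these genes were lower. Lmod1 was at 23, 25.9 and 18.6 against 33.3, 43.3 and 38.3 CPM and Tnni1, slow troponin I, at 0.282, 0.352 and 0.554 against 0.699, 1.96 and 1.33 CPM (edgeR adjusted p = 0.0974 and 0.172). Of 26 genes for calcium handling 0 passed edgeR, and the median was -0.31. Higher at an unadjusted p under 0.05 were 2, and lower 2 (against 10.3% and 3.71% of all genes). DESeq2 called 1 higher and 1 lower (against 5.1% and 1.3%). These counts were near the shares of all genes, and the 4 members below were taken by smallest p. Atp2a2, the slow-fibre calcium pump, was at 146, 139.8 and 181 against 93, 89.5 and 122 CPM, Kcna7 at 176, 239.7 and 193 against 117, 122 and 145 CPM and Casq2, slow calsequestrin, at 21.8, 24.4 and 27.5 against 28.1, 48.6 and 39 CPM, and Trdn, triadin, at 366, 363 and 312 against 612, 400.3 and 663 CPM.

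Regulators of muscle formation gave 1 risen gene of 23 tested (against 1.06% of all genes), none fallen, and a median log2 fold change of -0.43. Lower at an unadjusted p under 0.05 were 7 (against 3.71%), and DESeq2 called 5 lower (against 1.3%). Myh3, embryonic myosin heavy chain, a marker of regenerating fibres, rose from 3.59, 2.7 and 2.67 to 14, 15.9 and 21.2 CPM (log2 fold change 2.51 ± 0.24, edgeR adjusted p = 0.0186). The collagenase vehicle mice, however, were at 18, 23.6 and 18.5 CPM and the 5d mice at 16.1, 18.8 and 24.3 CPM on the 31-library scale, so these groups overlapped. Myod1 was at 31.3, 48.5 and 35.5 against 76.6, 91.1 and 51.5 CPM, Mef2a at 30.5, 23.7 and 25 against 44.6, 41.8 and 52.2 CPM and Mstn, myostatin, a brake on muscle growth, at 58.4, 56.5 and 51.5 against 164, 97.1 and 73.6 CPM (edgeR adjusted p = 0.149, 0.0717 and 0.159). The groups did not overlap in these 3 genes, which were taken by smallest p. Over the whole list, 7 of 23 lay below in this way and 1 above, against 5.58% and 14% of all genes. Of 24 atrophy and stress genes 0 passed edgeR, and the median was -0.54. Lower at an unadjusted p under 0.05 were 11, and higher 1 (against 3.71% and 10.3% of all genes). DESeq2 called 4 lower and 1 higher (against 1.3% and 5.1%). Fbxo32, the muscle ubiquitin ligase atrogin-1, was at 253, 169 and 164 against 1749.6, 693 and 241 CPM (edgeR adjusted p = 0.179). Vehicle mouse 3 was within the 5d values, and the collagenase vehicle mice were at 382, 232 and 271 CPM. Cebpb was at 9.96, 11.9 and 12.1 against 28.7, 27.1 and 12 CPM, Gadd45a at 10.5, 9.94 and 8.59 against 21.4, 20.1 and 10.2 CPM and Mt2, a metallothionein, at 18.8, 14.3 and 14.4 against 7.22, 10.7 and 5.59 CPM. At 1d Mt2 had been at 802, 19.1 and 296 CPM and Fbxo32 at 3099, 1266 and 632 CPM on the 31-library scale.

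**Figure D4:**
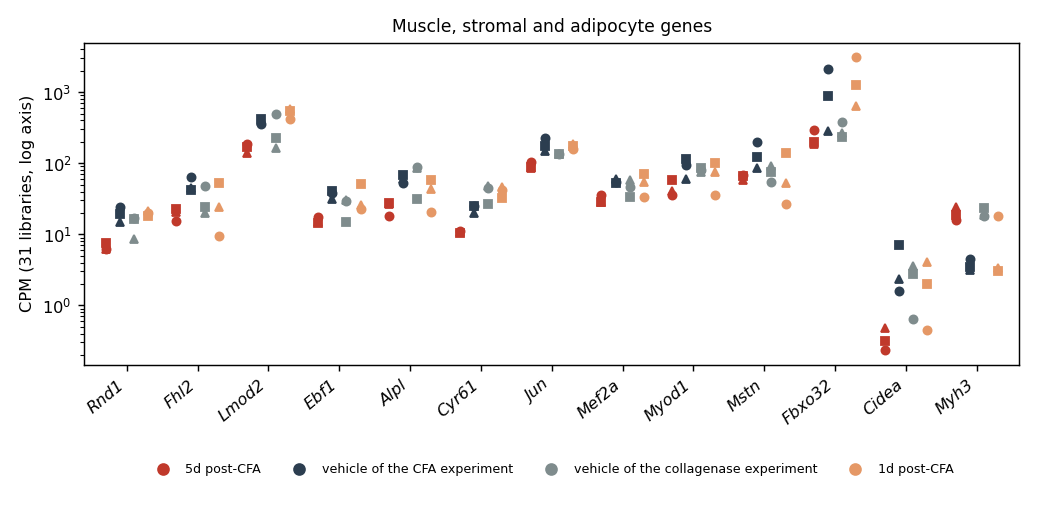
Each point is 1 mouse, with CPM scaled over 31 libraries on a log axis, genes along the horizontal axis, colours for the 4 groups and marker shapes for replicates 1 (circle), 2 (square) and 3 (triangle). The 5d mice lie below both vehicle groups for Rnd1, Alpl, Cyr61, Jun, Myod1 and Cidea, and overlap the collagenase vehicle mice for Fhl2, Lmod2 and Myh3. Cidea could be tested only by being lower at 5d.

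No gene of the adipocyte, fatty acid oxidation, respiratory or glycolysis lists passed edgeR. All 22 tested adipocyte genes had a negative log2 fold change (median -0.68), and 0 passed edgeR. An unadjusted p under 0.05 was found for 5 (against 3.71% of all genes lower), and DESeq2 called 3 lower (against 1.3%). Cidea, a lipid-droplet protein, was at 0.202, 0.264 and 0.416 against 1.3, 5.63 and 2.03 CPM (log2 fold change -3.33 ± 0.67, edgeR adjusted p = 0.0717), below all 6 vehicle mice. Dgat2 was at 61.1, 76.8 and 47.8 against 124, 160.1 and 78.8 CPM, Lpl, lipoprotein lipase, at 733, 693 and 566 against 1013, 1123 and 1134 CPM and Lipe, hormone-sensitive lipase, at 46.7, 50.9 and 43.9 against 81, 90.6 and 47 CPM. Of 26 genes for fatty acid oxidation 0 passed edgeR, 24 were negative, and the median was -0.44. Lower at an unadjusted p under 0.05 were 7, and higher 1 (against 3.71% and 10.3% of all genes). DESeq2 called 3 lower and 1 higher (against 1.3% and 5.1%). Cd36, the fatty acid transporter, was at 307, 267 and 305 against 459, 499 and 447 CPM, Hadhb at 30.4, 36.1 and 33 against 51.1, 54.7 and 40.5 CPM and Acadl at 204, 216 and 192 against 319, 328 and 243 CPM. Cpt1a, the liver-type carnitine palmitoyltransferase, went the other way at 63.3, 43 and 39.2 against 17.9, 18.2 and 24.1 CPM (log2 fold change 1.27 ± 0.23, edgeR adjusted p = 0.0565). Of 79 respiratory chain genes 0 passed edgeR or DESeq2, and the median was -0.16, which turned to 0.11 with sarcomere scaling. Higher at an unadjusted p under 0.05 were 2 (against 10.3% of all genes). Those were Cox6a1, at 54.9, 46.7 and 49.6 against 31.9, 43 and 34.4 CPM, and Cox8a, at 48.7, 38 and 34.6 against 25.8, 32.8 and 27 CPM, both subunits of cytochrome c oxidase. Of 29 genes for glycolysis and glycogen 0 passed edgeR, and the median was -0.05. Lower at an unadjusted p under 0.05 and by DESeq2 was 1 (against 3.71% and 1.3% of all genes). That gene was Ldhb, at 30.9, 35.9 and 29.5 against 41.3, 74.9 and 50.4 CPM.

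Matrix and collagen medians depended on vehicle mouse 3. Of 39 collagens Col17a1, described above, rose, none fell, and the median log2 fold change was 0.10 (0.73 without vehicle mouse 3). Col7a1, the anchoring fibril collagen of basement membranes, was at 28.4, 9.45 and 12.6 against 2.56, 0.518 and 3.24 CPM and followed the score, and Col4a6 was at 1.21, 1.58 and 1.48 against 0.299, 0.333 and 0.858 CPM. Of 35 matrix remodelling genes 0 passed edgeR, and the median was 0.02 (0.68 without vehicle mouse 3). Higher at an unadjusted p under 0.05 were 3, and lower 1 (against 10.3% and 3.71% of all genes). DESeq2 called 2 higher (against 5.1%). Mmp12, macrophage elastase, was at 2.22, 3.47 and 13.1 against 0, 0.185 and 0.731 CPM and Mmp3, stromelysin 1, at 21.5, 1.93 and 2.73 against 0.432, 0.555 and 1.4 CPM (edgeR adjusted p = 0.139 and 0.176). For Mmp12 mouse 3 was far above the other 5d mice, and for Mmp3 mouse 1 was. Of 16 genes of progenitors and tendon 1 fell, Ebf1, and the median was -0.26. Gsn, gelsolin, was at 1009, 1286 and 1072 against 1664, 2859 and 2156 CPM (edgeR adjusted p = 0.17) and below all 6 vehicle mice. Of 22 endothelial genes 0 passed edgeR, and the median was -0.21. Lower at an unadjusted p under 0.05 were 2 (against 3.71% of all genes), and DESeq2 called 1 lower (against 1.3%). Cldn5, the tight-junction claudin of endothelium, was at 17.7, 15.2 and 17.4 against 32.7, 36.1 and 18.8 CPM.

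**Figure D5:**
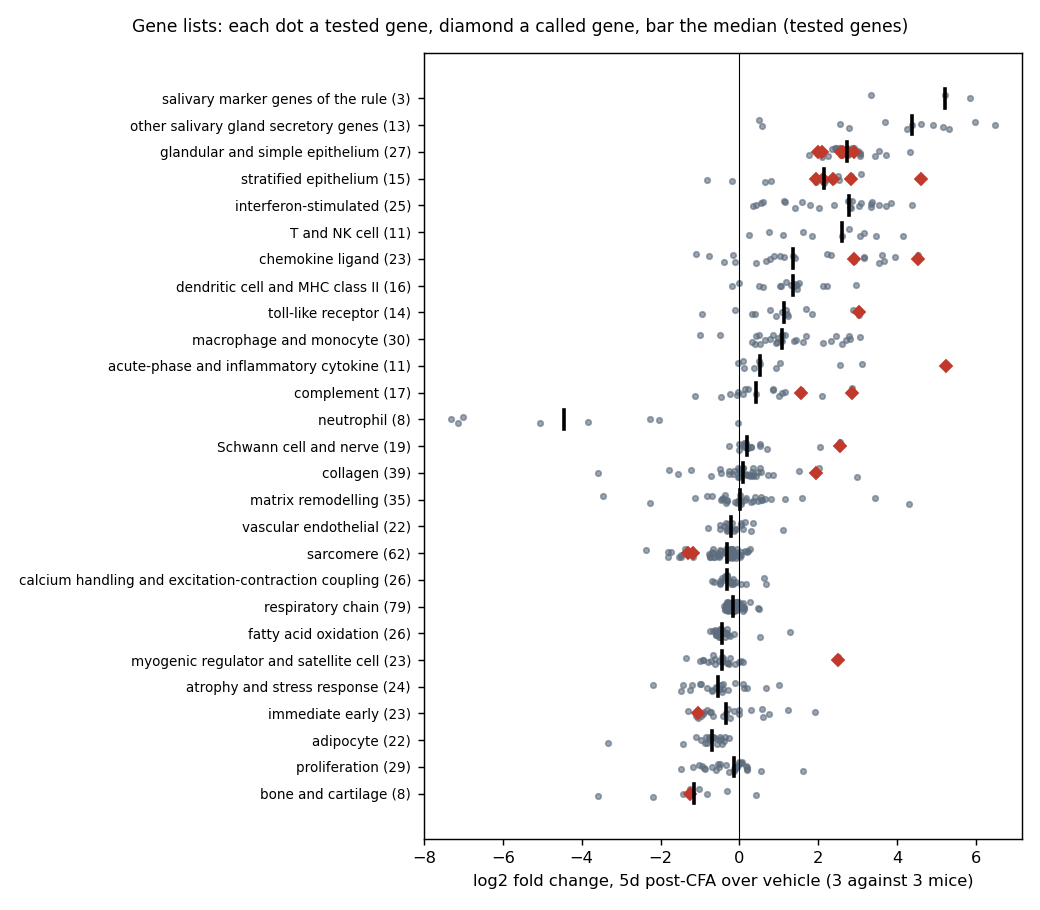
Each dot is a tested gene, placed by its log2 fold change of 5d post-CFA over vehicle (horizontal axis) in the row of its list, with the number of tested genes in brackets, diamonds for genes past the adjusted p and bars for the median. The salivary, epithelial, interferon-stimulated and T and NK cell lists have medians over 2, and the neutrophil list has the lowest, -4.44. Of the 11 T and NK cell genes, 3 could be tested only by being higher at 5d.

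Nerve, bone and early-response lists held 1 call each. Of 19 Schwann cell and nerve genes Sox10 rose, from 7.88, 10.3 and 11 to 69.5, 48.2 and 53.8 CPM (log2 fold change 2.55 ± 0.21, edgeR adjusted p = 0.0153), and none fell. Sox10, a neural crest factor that salivary acini also express, followed the score and was at 8.88, 66.2 and 32.2 CPM in the collagenase vehicle mice, while the list's median was 0.20. Myelin gene Mal was at 47.3, 34.3 and 29.8 against 29.8, 26.5 and 21.9 CPM. Of 8 tested bone and cartilage genes Alpl fell, none rose, and the median was -1.15 (0.92 without vehicle mouse 3). Acp5 was at 14, 10.2 and 9.1 against 5.16, 18.8 and 65.4 CPM. Of 23 immediate early genes Cyr61 fell, none rose, and the median was -0.35. Higher at an unadjusted p under 0.05 were 4, and lower 6 (against 10.3% and 3.71% of all genes). Jun was at 88.9, 75 and 75.4 against 186, 139 and 128 CPM, below all 6 vehicle mice (log2 fold change -0.92 ± 0.19, edgeR adjusted p = 0.074), and Nr4a3 at 1.45, 1.63 and 4.43 against 0.366, 0.777 and 0.826 CPM. Of 29 proliferation genes 0 passed edgeR or DESeq2, and 1 was higher at an unadjusted p under 0.05 (against 10.3% of all genes). The median moved from -0.14 to 2.14 without vehicle mouse 3, where 17 passed (against 11.8%). Ccnd1, cyclin D1, was at 40, 42.9 and 86.2 against 5.92, 15.1 and 33.8 CPM. None of 19 clock genes passed edgeR, and the median was -0.09. Lower at an unadjusted p under 0.05 were 2 (against 3.71% of all genes), and DESeq2 called 1 lower (against 1.3%). Arntl, the core activator, was at 7.5, 8.18 and 26.8 against 26.1, 15.1 and 43.6 CPM.

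The 8 genes that the study names for this comparison and that are on the list gave 3 that rose (Saa3, Ccl3 and Cxcl17), 8 at an unadjusted p under 0.05, 7 called by DESeq2 and a median log2 fold change of 2.92 (4.10 without vehicle mouse 3). Of these 8, Saa3, Ccl3 and Gzma reached 10 counts at 5d alone and could be tested only by being higher there. That list was chosen on these samples and is no independent evidence of a direction. Other genes among the 65 that were higher without following the score were epithelial or of mixed roles. Crabp2, a retinoic acid carrier, rose from 0.0998, 0.222 and 0.985 to 15.6, 10.5 and 8.96 CPM and Galnt6, which starts O-glycans of mucins, from 0.599, 0.74 and 2.92 to 22.4, 19.6 and 31.1 CPM (edgeR adjusted p = 0.0416 and 0.0397). Both crossed the class limit on the linear scale. Tns4, a tensin of epithelial cells, rose from 0.566, 0.481 and 0.954 to 12.8, 9.85 and 7.85 CPM (log2 fold change 3.91 ± 0.36, edgeR adjusted p = 0.0186), lay above all 6 vehicle mice and stayed under the limit on both scales, with 1.14, 6.79 and 2.94 CPM in the collagenase vehicle mice. Wfdc2, a secreted epithelial protease inhibitor, rose from 4.29, 2.29 and 2.73 to 24.7, 20.9 and 16.3 CPM, and Hs3st3b1, a heparan sulfate sulfotransferase, from 0.998, 0.555 and 2.03 to 8.95, 7.43 and 10.9 CPM (edgeR adjusted p = 0.0223 and 0.0447). Wfdc2 crossed the class limit on the linear scale. It stood at 1.23, 29.5 and 2.13 CPM in the collagenase vehicle mice, against 28.5, 24.7 and 18.6 CPM at 5d on the 31-library scale. D14Ertd668e, for which no role is given here, rose from 1.73, 1.81 and 2.22 to 6.29, 9.85 and 17.5 CPM and was lowest at 5d in mouse 1, as the interferon-stimulated genes were. Genes of secretion were also present, picked after their values were seen. Sec61b, of the channel that takes proteins into the endoplasmic reticulum, rose from 5.92, 7.44 and 10.3 to 34.6, 19.7 and 25.1 CPM and stood at 8.19, 37.3 and 12.2 CPM in the collagenase vehicle mice. Ssr4 rose from 36.4, 44.6 and 42.4 to 82.4, 79 and 79 CPM, with 45.5, 119.6 and 42.1 CPM there (edgeR adjusted p = 0.0447 and 0.0397). Agrn, agrin, which clusters receptors at the neuromuscular junction and was picked after its values were seen, rose from 29.6, 32.6 and 35 to 61.7, 57.3 and 72.5 CPM (log2 fold change 0.98 ± 0.15, edgeR adjusted p = 0.0409) and lay above all 6 vehicle mice (44.7, 47 and 40.4 CPM in the collagenase vehicle mice, 71.1, 67.8 and 83.1 CPM at 5d on that scale).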

How the data were processed

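Per the labels, polyA RNA of the left masseter was sequenced as 50-base single-end reads. The authors aligned reads to mouse build mm9 and deposited raw read counts per gene symbol. The submitters' processing notes name bcl2fastq, TopHat2 and HTSeq, while their versions, the annotation and the strand setting are not given in the sources used here. The 5 closing lines of each file, which name no gene, were dropped. Tests used edgeR 4.0.16 (R 4.3.3): TMM scaling of the 6 libraries, group as the only term, the quasi-likelihood test and Benjamini-Hochberg adjustment over 14026 genes. DESeq2 1.42.0 was an alternative. CPM are TMM-scaled over the 6 libraries unless the 31-library scale is named, and errors of log2 fold changes are standard errors. RPKM used exon lengths of an mm9 annotation (median 2842 bp). A count of 3 equals 0.0954 to 0.139 CPM. Intervals cover counting error only. The minimum of 10 counts was reached at 5d alone by 64 of the genes tested, among them 14 of the 149 higher genes. It was reached in vehicle alone by 22, among them 0 of the 6 lower genes. Of these 22, 1 was on the adipocyte list and 1 on the immediate early list.

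The groups, gene lists and tests were chosen with earlier results of these data known. Genes were named by rule: Smr3a, Pip and Dcpp1, the genes the study names, the 12 non-following and 5 following up-regulated genes with the largest fold change, the down-regulated genes, and the 4 members of each list with the smallest p. Genes outside the rule (Irf7, Irf9, Stat2, Pml, Sp100, Gbp2, Igtp, Iigp1, Rsad2, Cxcl9, Ifi27l2a, Ptx3, Ccl7, Cxcl1, Csf1r, Lyz2, Cd163, Cd3d, Cd3e, Cd3g, Mpo, Krt1, Lor, Ivl, Crisp3, Scnn1a, Scnn1b, Scnn1g, Ano1, Ascl3, Sec61b, Ssr4, Agrn) were picked after their values were seen. Promoter windows are RefSeq's, build GRCm38.p6, a different build from the counts. Shared 50-base windows were counted on annotated transcripts. Ebf1, Jun, Cebpb, Elf3, Galnt6, Mmp12 and Sp100 each overlap a gene model on the opposite strand. So do Acadl, Alas2, Ccnd1, Cidea, Col4a6, Fbxo32, Gadd45a, H2-Aa, H2-Ab1, Klk1, Lipe and Lmod1. Without the strand setting, the reads of these genes cannot be assigned to 1 of the overlapping models with certainty. A few list members are not reported here.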

Additional observations from a re-analysis of the deposited data

How the results depend on the processing

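The counts of calls depended on the processing. All 149 higher and 6 lower genes kept their sign under each alternative fit that tested them. The exception was 1 of the 149, which changed sign when the salivary score was added over 31 libraries. For fits on the same mice a kept sign was close to fixed in advance, because none of these genes had overlapping groups. Counts are given as higher, lower, up-regulated, down-regulated and higher without following the score, against 149, 6, 123, 6 and 65. DESeq2 gave 716, 183, 482, 61 and 448. Its size factors in edgeR gave 57, 3, 51, 3 and 20. A fit over 31 libraries gave 59 higher genes, 27 of them among the 149, with 52 up-regulated and 41 non-following genes. Of the 6 lower genes it called 2. That fit with the salivary score, the vehicle mice of both experiments pooled, and scaling to sarcomere genes each gave 0 for all 5 counts, with 817, 1451 and 1070 genes at an unadjusted p under 0.05. Scaling to genes that do not move with the score gave 17, 0, 16, 0 and 5. The last 2 scalings were added after seeing the data. Non-following genes numbered 20 and 127 with class limits of 0.4 and 0.8, and 25 when either scale could place a gene, also added later. Leaving out 1 mouse gave 0 to 1661 higher, 0 to 540 lower, 0 to 939 up-regulated DEGs at 5d post-CFA, 0 to 127 down-regulated DEGs and 0 to 1250 non-following genes, the highest of each without vehicle mouse 3. Igj went from a log2 fold change of -0.05 to 3.66 without vehicle mouse 3 (lowest -0.64), the 1 named gene to reverse and pass. The causes were not tested. With the replicate number as a block 123 genes were higher, 68 of them among the 149. Same-numbered mice correlated at -0.31, 0.36 and 0.12 in their deviations, and differently numbered ones at -0.54 to 0.50. With so few mice these values cannot show whether the numbers mark a pairing. Depth limits Saa3, Ccl3, Ccl12, Gzma, Gzmb and Ncr1, with at most 10 summed vehicle counts.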
